A study of Mus musculus with 5 samples.

Results

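The interferon-inducible GTPases described here are 10 mouse genes of 2 families, the guanylate-binding proteins (Gbp2, Gbp3, Gbp5, Gbp6, Gbp7, Gbp8 and Gbp9) and the immunity-related GTPases of the IRGM type (Irgm1, Irgm2 and Igtp). They were picked by symbol, and all 10 had a row in the deposited table of 24419 genes. The table held RNA from bone marrow-derived macrophages (BMMs) of C57BL/6 mice (C57BL6/J in the study's methods), grown with 50 ng/ml M-CSF for 5 days, and all 5 samples had been activated with 100 ng/ml LPS. PBS was then given to 2 samples and 100 ng/ml Sema3G to 3 samples for 18 h. Sema3G was a recombinant Fc-tagged protein made in 293T cells, a human kidney cell line, and the controls received the buffer alone. The number, age and sex of the mice behind the samples were not given in the sources used here, so p values measure the spread between these samples, which may be technical. RNA molecules were counted at their 3′ ends with unique molecular identifiers (UMIs), and levels are given in CPM, the UMIs of a gene scaled to a common library total. Because each RNA molecule gives 1 such tag whatever its length, these levels were not divided by gene length.

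Guanylate-binding proteins are large GTPases of the dynamin superfamily that assemble on the vacuoles of intracellular pathogens and on bacterial lipopolysaccharide in the cytosol, where they promote cleavage of gasdermin D by caspase-11, the product of Casp4. Immunity-related GTPases act on the same vacuoles. Irgm1, Irgm2 and Igtp (also called Irgm3) form the regulatory branch, which sits on the membranes of the cell's own organelles and keeps the effector branch inactive there. Interferon gamma is the strongest known inducer of both families. LPS induces them in macrophages by way of secreted type I interferon.

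The genes lie on 3 chromosomes (GENCODE M21, GRCm38, the build called mm10). On the plus strand of chromosome 3, Gbp5 runs from 142493978 to 142522344, Gbp7 from 142530342 to 142550149, Gbp3 from 142560026 to 142573209 and Gbp2 from 142620602 to 142638008. On the minus strand of chromosome 5, Gbp8 spans 105014150 to 105139540, Gbp9 105077630 to 105139539 and Gbp6 105270702 to 105293698, and the models of Gbp8 and Gbp9 share exons with each other. On chromosome 11, Irgm1 lies on the minus strand from 48861968 to 48871683, while Igtp (58199556 to 58207591) and Irgm2 (58199618 to 58222782) lie on the plus strand and overlap. Since 3′ reads of 75 bases were counted, the last 500 bases of each coding transcript were searched for 75-base words that occur in another gene. For Gbp6, 70.2% of these words recur in Gbp10, Gbp9 or the model Gm43302, and the authors' treatment of reads with several matches was not found in the labels or methods. For the other 9 genes the share was at most 1.54%, so little of their 3′ ends recurs elsewhere. A processed pseudogene, Gm43802, lies inside the last exon of Gbp7 on the same strand and is not listed separately in the table.

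The promoters are shown because they carry the letters that interferon-activated factors read. The choice of the genes used no promoter sequence, but it took families known to be interferon-inducible. The matches are thus not independent of that choice, and related copies can share sequence. RefSeq promoters (GRCm38.p6, 250 bases before to 50 after a transcript start) were matched for 7 of the 10 genes, in 8 entries, the exceptions being Gbp6, Gbp8 and Gbp9. The RefSeq starts can differ from the GENCODE bounds given above, and those of Gbp5, Irgm1 and Irgm2 lie inside these bounds. The core of the interferon-stimulated response element (ISRE), which binds IRF proteins, was searched as GAAA, any 2 bases, GAAA on both strands. The core of the gamma-activated sequence (GAS), named for its part in the response to interferon gamma, was searched as TTCNNNGAA. Below are 40 bases around the ISRE core of each gene, 5′ to 3′ along the gene's strand, with the letters of both motifs in capitals.
Gbp2, chr3:142620589-142620628, plus strand: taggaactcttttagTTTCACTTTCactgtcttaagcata
Gbp3, chr3:142559987-142560026, plus strand: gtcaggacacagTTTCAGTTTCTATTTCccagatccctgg
Gbp5, chr3:142496754-142496793, plus strand: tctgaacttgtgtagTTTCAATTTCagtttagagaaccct
Gbp7, chr3:142530268-142530307, plus strand: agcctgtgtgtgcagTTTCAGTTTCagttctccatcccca
Irgm1, chr11:48871423-48871462, minus strand: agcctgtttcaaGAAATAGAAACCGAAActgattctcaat
Irgm2, chr11:58214898-58214937, plus strand: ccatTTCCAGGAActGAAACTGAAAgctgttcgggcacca
Igtp, chr11:58199507-58199546, plus strand: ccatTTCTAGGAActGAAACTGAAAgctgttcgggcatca

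Each of the 7 genes with a matched promoter held an ISRE core, against 3.44% of all 32851 promoter entries. Gbp3 has a further promoter entry, which held neither motif, and in Gbp3 and Irgm1 a pair of ISRE cores overlapped. A GAS core stood in 4 of the 7 genes (Gbp5, Gbp7, Irgm2 and Igtp), against 8.30% of all entries. The windows of Igtp and Irgm2 were identical at 38 of 40 bases, with the GAS and ISRE cores side by side in the same order and spacing. In Gbp7 and Gbp5 the GAS cores lay outside the windows shown, at -106 and -87 from the transcript start in Gbp7 and at -245 and -52 in Gbp5. A match of letters is a description of the sequence and does not show that a factor bound there.

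**Figure D1:**
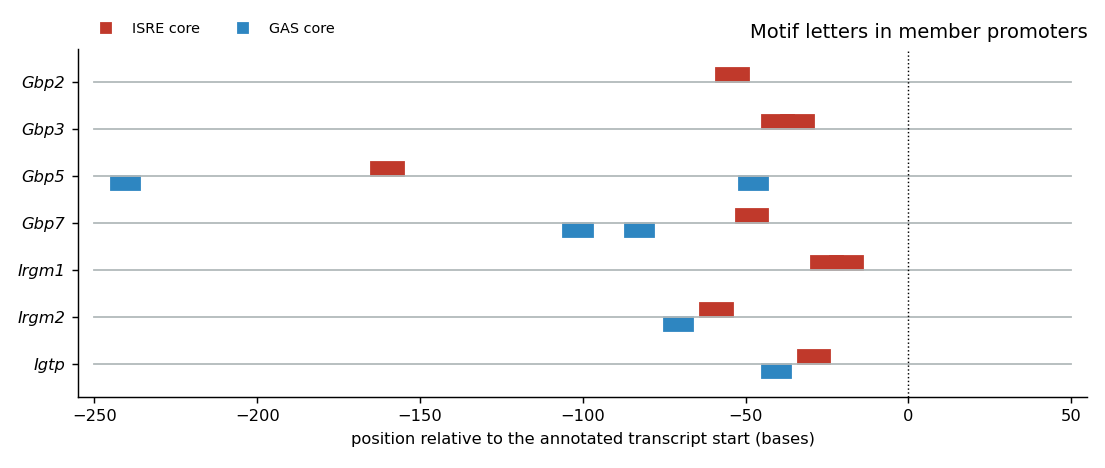
Position of the motif letters in the promoters of the 7 matched genes, in bases from the annotated transcript start (dotted line); red boxes are ISRE cores and blue boxes GAS cores, with the Gbp3 entry that held them. The ISRE cores begin between -64 and -24 in 6 genes, and that of Gbp5 begins at -165.

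Levels were low in these LPS-activated BMMs. The 10 genes together held 719 UMIs over the 5 libraries, of which Gbp7 held 41.9%, Irgm2 20.6% and Igtp 14.0%. Gbp7 was the highest, at 24.7 and 16.6 CPM with PBS and 38.4, 36.1 and 35.0 CPM with Sema3G, above the levels of 73.1% of the genes detected. Irgm2 and Igtp stood in the middle of the detected genes, with group means between 8.76 and 19.3 CPM. Irgm1, Gbp2 and Gbp3 had group means between 3.81 and 6.50 CPM, and their order within this range did not exceed the spread over libraries.

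The other 4 genes were at or under 3 UMIs in every library, the limit set for calling a level here, which is 1.35 to 1.67 CPM depending on the library. Gbp5, which promotes NLRP3 inflammasome assembly, had 3 UMIs in 4 libraries and 2 in Sema3G replicate 3. Gbp8 had between 0 and 2 UMIs and Gbp9 0 or 1. Gbp6 had 0 in every library, which allows up to 1.67 CPM, with the reservation that most of its 3′ end is shared with relatives. No fold change is compared for these 4 genes, and no difference between the groups was detectable at this depth.

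**Figure D2:**
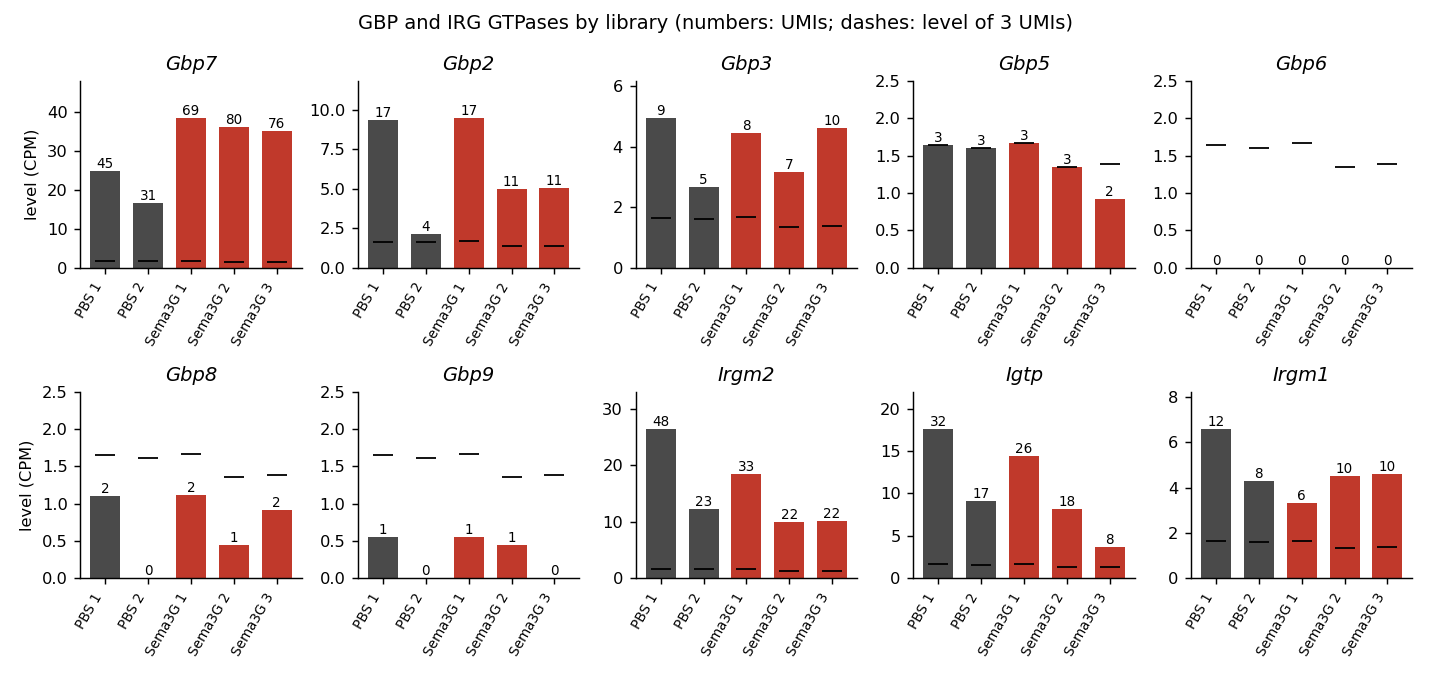
Level of each gene in CPM in the 2 PBS (grey) and 3 Sema3G (red) libraries, with the UMI count over each bar and a dash at the level of 3 UMIs; vertical scales differ between genes. All 3 Sema3G bars of Gbp7 stand above both PBS bars, while Gbp2, Irgm2 and Igtp are tallest in replicate 1 of their group.

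The comparison of Sema3G with PBS asks whether Sema3G alters macrophage gene expression. The test was limma on log2(CPM + 1), with the 10088 genes that averaged 1 CPM or more, and p values were adjusted by Benjamini-Hochberg (threshold 0.05). The log2 fold change of Sema3G over PBS is written log2FC and its standard error SE. Of the 10 GTPase genes, 7 passed this filter, and none of them was called in either direction, while 1.59% of the tested genes were called higher and 0.218% lower. At an unadjusted limma p below 0.05 there was 1 of the 7, Gbp7, against 21.1% of all tested genes. Over all genes, calls under other scalings lay more to the higher side, with 322 higher and 3 lower with TMM-scaled CPM and 493 and 2 with CPM over the listed genes without Rn45s, against 160 and 22. The median log2FC of the 6 members above the limit of 3 UMIs was -0.10, beside -0.22 over all tested genes (-0.04 with TMM scaling). With Gbp5, which passed the filter at 2 or 3 UMIs a library, the median of the 7 was -0.20 and rested on Gbp5. The all-gene median lay below 0, so the values of Gbp7, Irgm1, Irgm2 and Igtp are also given relative to that median.

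Gbp7, which has been linked to assembly of the phagocyte NADPH oxidase, was the member tested in which the groups did not overlap. It had UMI counts of 45 and 31 (PBS) and of 69, 80 and 76 (Sema3G). Its level was 20.7 ± 5.75 CPM in PBS (SD, n = 2) and 36.5 ± 1.70 CPM in Sema3G (SD, n = 3). Every Sema3G library lay above both PBS libraries, a pattern that 11.9% of the tested genes also had. The log2FC of Gbp7 was 0.82 (SE 0.25, limma adjusted p = 0.0930), or 1.04 relative to the median of all genes. An exact permutation test of its mean CPM over the 10 arrangements of the libraries gave p = 0.1 for the absolute difference and p = 0.2 as the doubled one-sided value, the smallest that 2 samples against 3 allow by each definition.

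The call on Gbp7 depended on the test and the scaling. It passed the threshold under 6 of 16 alternatives, 1 of which was chosen after seeing the data, with a log2FC between 0.54 and 1.11 over all 16. On the recovered UMI counts, edgeR's quasi-likelihood test gave 1.04 (adjusted p = 0.0220), where 4.05% of genes were called higher, and limma on TMM-scaled CPM gave 1.01 (adjusted p = 0.0216), where 3.19% were. DESeq2 gave 1.05 (adjusted p = 0.0668), where 1.83% of genes were called higher. It also passed with the replicate number as a block, where limma called 2.95% of genes higher and Sema3G replicate 3, which has no partner, does not enter the contrast. That fit leaves little spread of a single gene to measure. For any gene, its limma p values therefore rest on the variance pooled over genes. No member was called lower in any of these fits, which called 0.0491% (edgeR), 0.0297% (TMM-scaled CPM), 0.00782% (DESeq2) and 2.73% (limma with the block) of genes lower. Without PBS replicate 2, the lower of the controls, the log2FC was 0.54 (limma adjusted p = 0.259), and without PBS replicate 1 it was 1.09 (limma adjusted p = 0.0672).

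As a share of the UMIs on the 10 genes, which rests on the same Gbp7 counts and moves with the other members, Gbp7 held 26.6% and 34.1% with PBS. With Sema3G it held 41.8%, 52.3% and 53.9%. The 95% exact binomial intervals, which cover counting error only, were 24.5% to 44.7% in PBS replicate 2 and 34.2% to 49.7% in Sema3G replicate 1, so these libraries overlapped within counting error. The share was lowest in replicate 1 of both groups. Over the pooled libraries of each group, Irgm2 held 27.3% with PBS and 16.8% with Sema3G, and Igtp 18.8% and 11.3%.

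The groups overlapped for Gbp2 and Gbp3, which lie downstream of Gbp7 on chromosome 3. Gbp2, a prenylated member that coats vacuoles of Toxoplasma, had UMI counts of 17 and 4 (PBS) and of 17, 11 and 11 (Sema3G). Both groups reached about the same highest level, and the low value was PBS replicate 2. Its mean was 5.74 ± 5.09 CPM in PBS (SD, n = 2) and 6.50 ± 2.56 CPM in Sema3G (SD, n = 3) (log2FC 0.34, SE 0.48, limma adjusted p = 0.702). Gbp3, which lies between Gbp7 and Gbp2, had UMI counts of 9 and 5 (PBS) and of 8, 7 and 10 (Sema3G), a log2FC of 0.10 (SE 0.44, limma adjusted p = 0.913). Without PBS replicate 2 the log2FC values of both turned negative, at -0.52 for Gbp2 and -0.24 for Gbp3.

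The 3 IRGM genes on chromosome 11 had values below 0 for Sema3G against PBS, and none passed the test. Relative to the median of all genes, Irgm1 was at -0.08 and Igtp at -0.43. Irgm2, which restrains caspase-11 responses to LPS, had UMI counts of 48 and 23 (PBS) and of 33, 22 and 22 (Sema3G). PBS replicate 1 was the highest library, and PBS replicate 2 lay among the Sema3G libraries in CPM (12.3 against 18.3, 9.93 and 10.1). The log2FC was -0.52 (SE 0.36, limma adjusted p = 0.403), or -0.30 relative to the median of all genes. Without PBS replicate 1 no difference remained in the estimate (-0.00070), and without PBS replicate 2 it was -1.04 (limma adjusted p = 0.139).

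Igtp, a regulator found on the endoplasmic reticulum and on lipid droplets, had UMI counts of 32 and 17 (PBS) and of 26, 18 and 8 (Sema3G). The highest library of each group was replicate 1, and the groups overlapped. The log2FC was -0.65 (SE 0.44, 95% interval -1.58 to 0.27, limma adjusted p = 0.395). It was -1.09 without PBS replicate 2, -1.07 without Sema3G replicate 1 and -0.21 without either PBS replicate 1 or Sema3G replicate 3, and did not pass in any of these limma fits. Irgm1, needed for resistance to mycobacteria, had UMI counts of 12 and 8 (PBS) and of 6, 10 and 10 (Sema3G). Its levels of 5.44 ± 1.63 CPM (SD, n = 2) and 4.15 ± 0.709 CPM (SD, n = 3) differed by less than the spread between libraries (log2FC -0.31, SE 0.42, limma adjusted p = 0.691). This value was -0.05 without PBS replicate 1, -0.57 without PBS replicate 2 and -0.19 without Sema3G replicate 1. The intervals of all 3 IRGM genes include 0 and also falls of more than 2-fold on this scale, so they do not show that Sema3G left these genes alone.

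**Figure D3:**
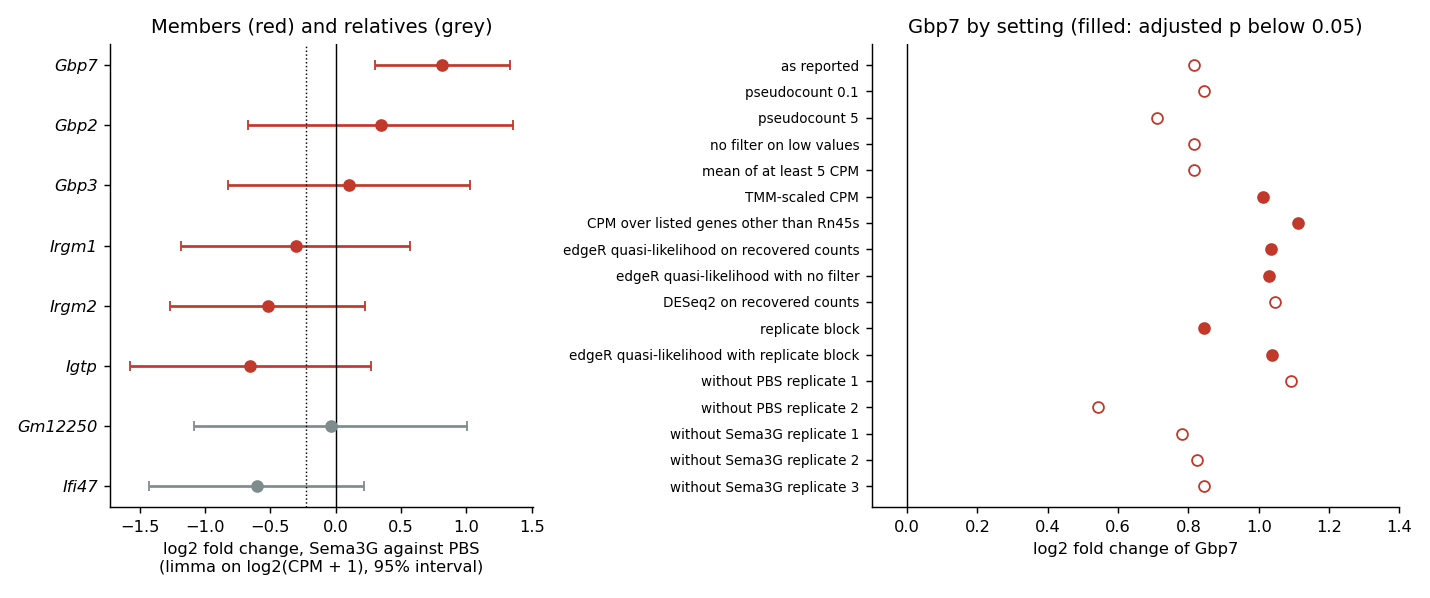
Left, log2FC of Sema3G against PBS with its 95% interval from limma for 6 members (red) and 2 relatives (grey); the solid line marks 0 and the dotted line the median of all tested genes, -0.22. Right, the log2FC of Gbp7 in each fit, filled where its adjusted p was below 0.05. The interval of Gbp7 runs from 0.30 to 1.33 and those of the other genes include 0.

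The 2 PBS libraries differed from each other in these genes. PBS replicate 2 lay below PBS replicate 1 in all 6 genes above the limit, at 0.229 to 0.671 times its level, with a median of 0.529. Over all tested genes the median log2 difference between these libraries was -0.12, against -0.79 over these 6 genes. For 3 of the 6 genes the 95% exact binomial interval of the ratio lay below 1. These were Gbp2 (0.229, interval 0.0561 to 0.703), Irgm2 (0.467, interval 0.271 to 0.783) and Igtp (0.518, interval 0.270 to 0.960). For Gbp7 (0.671, interval 0.411 to 1.08), Irgm1 (0.650, interval 0.230 to 1.73) and Gbp3 (0.541, interval 0.143 to 1.80) the interval included 1. These intervals compare 2 libraries and cover counting error only.

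Among the Sema3G libraries, replicate 1 was likewise the highest for Irgm2, Igtp and Gbp2. Irgm2 in Sema3G replicates 2 and 3 lay at 0.541 and 0.553 times its level in replicate 1, with intervals of 0.301 to 0.956 and 0.307 to 0.977. Igtp lay at 0.562 times (interval 0.290 to 1.07) in replicate 2 and 0.255 times (interval 0.0998 to 0.580) in replicate 3. Gbp2 lay at 0.525 and 0.536 times, with intervals that included 1. Replicates 2 and 3 of Sema3G were close to each other in Irgm2, Gbp2 and Irgm1, each with a ratio of 1.02. Gbp7 in Sema3G replicates 2 and 3 lay at 0.941 and 0.913 times replicate 1 with intervals that included 1, and Irgm1 was lowest, not highest, in Sema3G replicate 1.

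Of the 6 members above the limit, 4 (Gbp2, Gbp7, Irgm2 and Igtp) were highest in replicate 1 of both groups, which 33.8% of all tested genes were. Gbp5 would make this 5 of 7, but its UMI counts were tied or 1 apart and its order came from the library totals. At a margin of at least 1.5-fold in both groups there were 3 of the 7 tested, Gbp2, Irgm2 and Igtp, against 4.17% of all tested genes. The labels do not say whether a replicate number marks a shared culture or day. This pattern was noticed in these data, so these counts are a description.

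**Figure D4:**
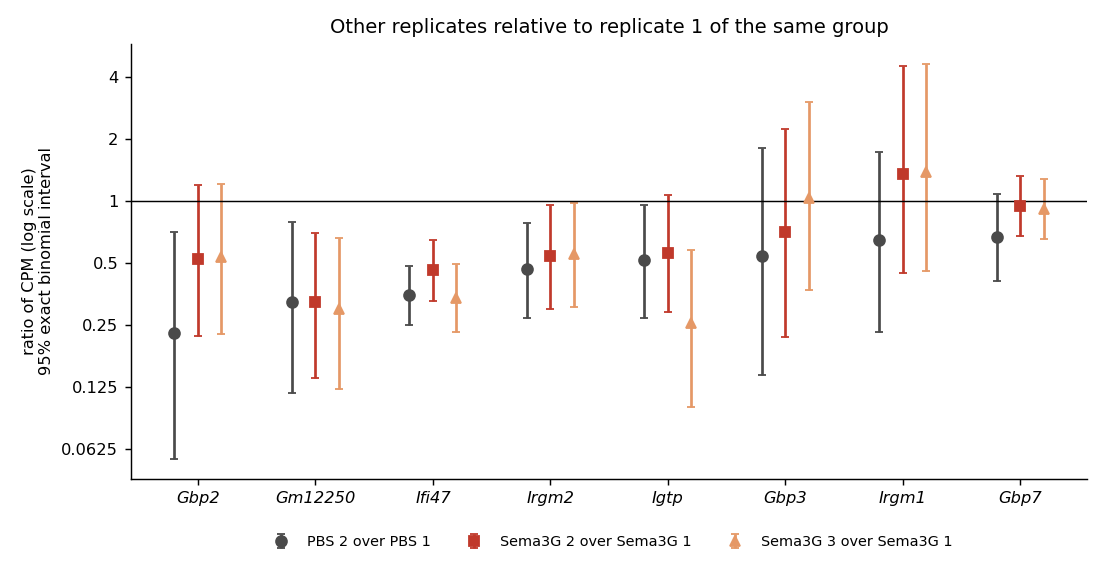
Ratio of CPM of the other replicates to replicate 1 of the same group (log scale), with 95% exact binomial intervals that cover counting error only, for 6 members and the relatives Gm12250 and Ifi47. All points of Gbp2, Gm12250, Ifi47, Irgm2 and Igtp lie below 1, and those of Gbp7 in the Sema3G group lie near 1.

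Ifi47 and Gm12250, relatives outside the set, were also highest in replicate 1 of both groups. Of 20 such genes listed, 19 had a row, 6 were tested and none was called. Ifi47, the effector-branch gene also called Irgd, was the most abundant, with UMI counts of 142 and 51 (PBS) and of 100, 57 and 41 (Sema3G). Its level in PBS replicate 2 was 0.350 times that in PBS replicate 1 (interval 0.249 to 0.485), and in Sema3G replicates 2 and 3 it was 0.463 and 0.340 times that in replicate 1. Its log2FC for Sema3G was -0.60 (SE 0.39, limma adjusted p = 0.377), and it turned to 0.14 without PBS replicate 1. Gm12250, which RefSeq also names Irgb10 and which acts with the GBPs on bacterial membranes, had UMI counts of 21 and 7 (PBS) and of 25, 10 and 9 (Sema3G) (log2FC -0.04, SE 0.50, limma adjusted p = 0.972, with a direction that turned under most other scalings). The tested relatives ran from Irgq at -0.70 (limma adjusted p = 0.208) to Gm1966 at 1.34 (limma adjusted p = 0.153, on 1 to 7 UMIs a library). Gbp2b, Gbp10, Gbp11 and Tgtp1 had 0 UMIs in every library, Gbp4 and Tgtp2 had 1 UMI each in all, and Iigp1 had between 0 and 4. The 3′ ends of Gbp10 and Tgtp2 were shared whole with relatives and that of Tgtp1 to 76.7%, so their counts are uncertain. GENCODE M21 lists Gm12250 and Gm1966 as pseudogenes with no coding transcript, so the 3′ ends of these genes were not searched for shared words.

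Of the interferon genes, 4 were looked up, and none was detected. Ifng and Ifnb1 had 0 UMIs in every library, as had Ifna2 and Ifna4, which allows up to 1.67 CPM. The receptor chains Ifngr1 and Ifngr2 were at 260 ± 13.6 and 131 ± 9.10 CPM (SD, n = 2) with PBS and at 206 ± 19.8 and 106 ± 10.4 CPM (SD, n = 3) with Sema3G. Both chains were lower in each Sema3G library than in either control, as were 3 of the 4 receptor chains tested and 26.5% of the tested genes. Neither was called (limma adjusted p = 0.294 and 0.355). The log2FC of Ifngr1 and Ifngr2 was -0.13 and -0.10 with TMM-scaled CPM. Over the listed genes without Rn45s it was -0.05 and -0.01. Of the 4 receptor chains tested, the log2FC values ran from -0.34 for Ifngr1 to 0.19 for Ifnar2.

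Of 16 genes of the JAK, STAT and IRF step, 15 were tested and none was called, with a median log2FC of -0.22, equal to that of all genes. Irf1 had the lowest value of this list, with UMI counts of 268 and 199 (PBS) and of 181, 189 and 159 (Sema3G) (log2FC -0.54, SE 0.21, limma adjusted p = 0.156). Leaving out 1 library moved this value between -0.77 and -0.31, and over the listed genes without Rn45s it was -0.25. The highest was Irf2, a factor that competes with Irf1 for the same sites, at 0.27 (limma adjusted p = 0.395).

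Other targets of the interferons gave no calls in the limma fit without a block. Of 24 genes induced by interferon gamma, 19 were tested, with a median log2FC of -0.41 and a range from Cd74, the MHC class II invariant chain, at -0.88 (limma adjusted p = 0.0820) to Nos2 at 0.29 (limma adjusted p = 0.735). The call on Cd74 depended on the fit, as it passed with edgeR unfiltered, with the replicate block (limma -1.02, adjusted p = 7.8e-06) and without Sema3G replicate 1 (limma -1.06, adjusted p = 0.0378). The p value with the block rests on the variance pooled over genes and not on the spread of Cd74. Cd74 in Sema3G replicate 3 was 1.88 times its level in replicate 2. Of 24 genes induced by type I interferon, 23 were tested, with a median of -0.14. They ran from Ifit1 at -0.77 (limma adjusted p = 0.523) to Xaf1 at 1.22 (limma adjusted p = 0.215). The value of Xaf1 rested on the controls, which had 13 and 1 UMIs, and was 2.43 without PBS replicate 1 (limma adjusted p = 0.0265) and 0.02 without PBS replicate 2 (limma adjusted p = 0.987). In the type I list, 15 of 23 genes were at least 1.5-fold higher in replicate 1 of both groups. The median over genes of the CPM ratio of PBS replicate 2 to PBS replicate 1 was 0.297. Ifit1 had UMI counts of 76 and 13 (PBS) and of 62, 19 and 6 (Sema3G). In the interferon gamma list 2 of 19 genes passed that margin, against 4.17% of all tested genes. Without a margin, replicate 1 was highest in both groups for 14 of the 19 and for 20 of the 23 type I genes, against 33.8%.

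**Figure D5:**
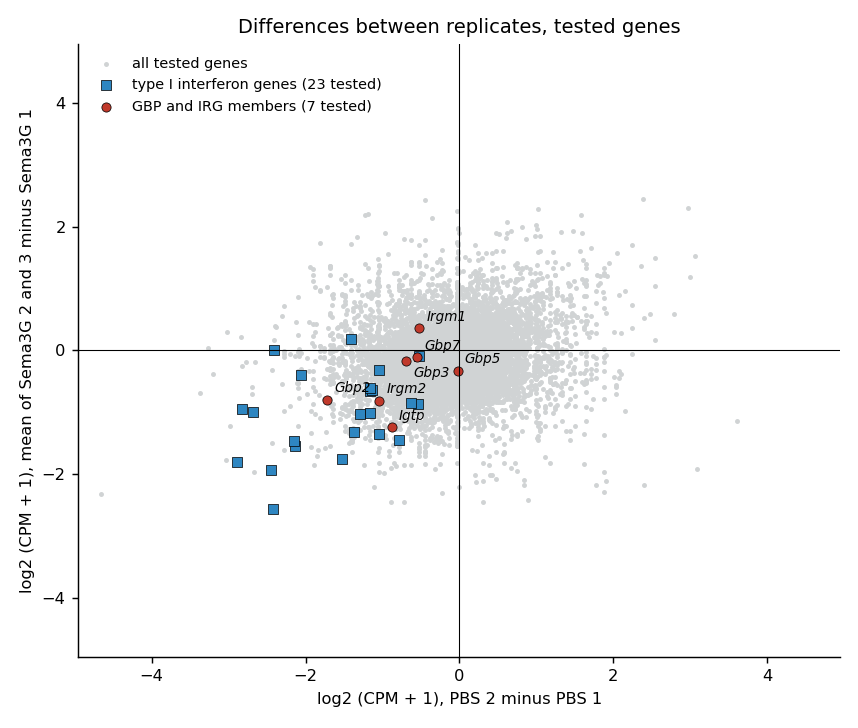
Difference of log2(CPM + 1) between PBS replicates 2 and 1 (horizontal) and between the mean of Sema3G replicates 2 and 3 and Sema3G replicate 1 (vertical), for the 10088 tested genes (grey), the 23 tested type I interferon genes (blue) and the 7 tested GTPase genes (red). Gbp2, Irgm2 and Igtp lie at the lower left with most type I genes, and Gbp7 and Gbp3 lie closer to the centre.

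Genes that act with the GTPases gave no calls in the same limma fit. Of 9 inflammasome genes, all were tested, with a median log2FC of -0.12. Aim2, a sensor of cytosolic DNA that GBPs help to expose, was the highest of the list, with UMI counts of 15 and 26 (PBS) and of 43, 61 and 44 (Sema3G). Every Sema3G library lay above both PBS libraries (log2FC 1.07, SE 0.30, limma adjusted p = 0.0709), and it passed the threshold under 7 of 16 alternatives, among them edgeR's quasi-likelihood test (1.30, adjusted p = 0.0324) and limma with the replicate block (1.18, adjusted p = 0.00613), though not with DESeq2. Casp4 was at 26.6 ± 5.09 CPM (SD, n = 2) and 39.0 ± 8.84 CPM (SD, n = 3), a log2FC of 0.52 (limma adjusted p = 0.234). Leaving out 1 library moved this value between 0.33 and 0.71. In this list 2 genes, Aim2 and Casp4, had every Sema3G library above both PBS libraries, and 3 had every one below. Over all tested genes these shares were 11.9% and 26.5%. Gsdmd was the lowest of the list, at 45.9 ± 3.53 and 32.9 ± 7.26 CPM (log2FC -0.49, limma adjusted p = 0.244).

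A list of 13 genes held ATG8 proteins and their conjugation factors, which mark vacuoles for these GTPases, with Sqstm1, Trim21 and Traf6, a cargo receptor and ubiquitin ligases that act on such vacuoles. They were all tested and none was called in the limma fit of all 5 libraries without a block. They ran from Map1lc3b at -0.65 (limma adjusted p = 0.0922) to Gabarap at 0.18 (limma adjusted p = 0.578). In limma, Map1lc3b passed at -0.57 (adjusted p = 0.0264) with the replicate block and at -0.79 (adjusted p = 0.0208) when Sema3G replicate 1 was left out. The 7 genes of CaaX prenylation, the lipid modification that anchors Gbp2 and Gbp5 in membranes, ran from Fntb at -1.33 (limma adjusted p = 0.122, on 3 to 15 UMIs a library) to Pggt1b at 0.23 (limma adjusted p = 0.825). Their medians of -0.29 and -0.30 lay near the median of all genes.

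The libraries differed in ways that move with the groups and with the replicate numbers. The listed genes held 77.6% and 75.6% of the UMIs with PBS and 65.9% to 71.3% with Sema3G, and the ribosomal RNA precursor Rn45s held 1.01% and 3.19% against 6.31% to 7.88%. Library totals ran from 1798469 to 2215855 UMIs. The 8 macrophage markers looked up were all detected and none was called, with a summed level of 12570 and 9761 CPM with PBS and 8860 to 9518 CPM with Sema3G. Of these, Csf1r and Adgre1 were lower in every Sema3G library than in both PBS libraries, as were 26.5% of the tested genes. Itgam and Mertk (0 to 5 UMIs) were higher in every one, as were 11.9% of the tested genes, and the other 4 overlapped. Of 7 T and NK cell markers in the table, 6 were at 0 in every library, and the remaining one, Cd4, had 5 to 18 UMIs. Of 5 B cell markers 4 were at 0, and the remaining one, Cd79b, had 5 UMIs in each PBS library and 1, 0 and 1 in the Sema3G libraries, so that the groups did not overlap. Dendritic cell markers summed to at most 4 UMIs, and neutrophil markers, nearly all of it S100a8, summed to 103 to 169 CPM with overlapping groups. With CPM over the listed genes without Rn45s, the log2FC was 1.11 for Gbp7, 0.63 for Gbp2 and 0.36 for Gbp3. On that scale it was -0.07 for Irgm1, -0.25 for Irgm2 and -0.41 for Igtp. Beyond such rescaling, the part of these differences in the values above was not tested. In bulk RNA, fewer cells of a kind and less RNA per cell cannot be told apart.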

How the data were processed

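The data were RNA measurements of 5 samples of LPS-stimulated BMMs, 2 with PBS and 3 with Sema3G. The authors prepared QuantSeq 3′ libraries with UMIs, took mm10 as genome, obtained UMI counts in Strand NGS and used EdgeR (3.12 in the submitters' processing notes). Strand setting, gene models and treatment of multiply matching reads were not found in the labels or methods. CPM values were deposited, together with p-values, q-values and ranks of the authors' comparison, which were left aside. In each library all CPM values were whole multiples of 1 step (100% within 0.01), so whole UMI counts were recovered (1283029 to 1487137 UMIs on listed genes).

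The main fit used limma 3.58.1 in R 4.3.3 (trend = TRUE, pseudocount 1) on all samples, without a block. Fold changes on this scale understate those of low genes. The recovered counts went into edgeR 4.0.16 (quasi-likelihood test, 330 genes called higher and 4 lower of 8144) and DESeq2 1.42.0. Ratio intervals are exact binomial (95%), and 3 UMIs in a library was taken as the lowest level to interpret. Alternatives varied the pseudocount (0.1 or 5), the filter (none or 5 CPM), the scaling and a replicate block, and dropped single libraries, with the filter still read from all 5. An edgeR fit with the block was chosen after seeing the data. Scripts were tested on simulated data. The text names the 10 members, the tested genes with the highest and lowest log2FC of each list of related genes, and a set of interferon pathway genes and relatives. Gene names beyond this rule (Ifna2, Ifna4, Gbp10, Gbp11, Csf1r, Adgre1, Itgam, Mertk, Cd4, Cd79b, S100a8, Sqstm1, Trim21, Traf6) were added after their values were seen. Members and lists were chosen with earlier results of these data known. Positions come from GENCODE M21 (GRCm38) and promoters from RefSeq GRCm38.p6.
One gene of the signalling list is not reported here.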

Additional observations from a re-analysis of the deposited data

How the results depend on the processing

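The number of members called higher was 0 by limma and 1 (Gbp7) with TMM-scaled CPM, with CPM over listed genes without Rn45s, with edgeR filtered or unfiltered, and with the replicate block in limma or edgeR. None was called lower under any alternative. Over all genes, limma called 160 higher and 22 lower. The counts were 104 and 4 with no filter, 322 and 3 with TMM, 493 and 2 over listed genes, 330 and 4 with edgeR, 555 and 43 with edgeR unfiltered, and 234 and 1 with DESeq2; pseudocount 0.1 gave 5 lower. The members' median log2FC, -0.20 by limma over 7 members with Gbp5 at 2 or 3 UMIs a library, was 0.30 with edgeR unfiltered, 0.33 with DESeq2 (both with 9 members tested) and 0.27 with edgeR and the block (4 members).

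Leaving out 1 library gave 27 to 270 genes higher and 0 to 440 lower, the counts being 88 and 11 without PBS replicate 1, 177 and 40 without PBS replicate 2, 270 and 440 without Sema3G replicate 1, 27 and 0 without Sema3G replicate 2, and 32 and 0 without Sema3G replicate 3. It called 0 members. Over these fits the log2FC ran from -0.52 to 1.20 for Gbp2, -0.24 to 0.45 for Gbp3, -1.34 to 0.14 for Ifi47, -0.74 to 0.66 for Gm12250, -0.15 to 0.94 for Nos2, -0.14 to 0.59 for Pggt1b and -1.98 to 0.45 for Ifit1, in each case reversing.  Gm12250 also reversed with TMM (0.13), over listed genes (0.22), with edgeR (0.14, unfiltered 0.14), with DESeq2 (0.17) and with the block (0.23 in limma, 0.45 in edgeR), and Ifit1 with edgeR and the block (0.073). The cause was not tested.

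With the replicate number as a block, limma called 298 genes higher and 275 lower and edgeR 453 and 42; Gbp7 then passed in limma (0.85, adjusted p = 0.0216). Sema3G replicate 3 has no partner and drops out of that contrast, and the limma p values with the block rest on the variance pooled over genes. Deviations of same-numbered samples from their group means correlated across 10088 genes at 0.173 (number 1) and 0.111 (number 2), while PBS replicate 2 and Sema3G replicate 3, with different numbers, gave 0.0973. With 2 PBS libraries, their deviations mirror each other, so these values say little about pairing. The labels do not say what a number marks, so whether numbers pair cultures is unknown, and the block was not taken as the main fit. Casp4 passed with edgeR and the block (0.77, adjusted p = 0.0413). The 6 measured members had 4 to 80 UMIs a library, which limits the precision of each value.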

Other observations

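The ISRE core seen in the GTPase promoters was also looked up in all tested genes. Of 7846 tested genes with a promoter entry, 305 held the core. In these 305 genes, 9.84% were at least 1.5-fold higher in replicate 1 than in the other replicates of both groups, against 4.08% of the 7846, and limma called 4 of the 305 higher and 0 lower with Sema3G, against 118 and 20 of the 7846. Their median log2 fold change for Sema3G was -0.20, against -0.23 over the 7846. Of the 642 genes with a GAS core, 4.52% were at least 1.5-fold higher in replicate 1 of both groups. These are descriptions with no test, made after the difference between replicates had been seen.

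Within the lists, an ISRE core stood in 11 of the 17 type I interferon genes with a promoter entry, in 4 of 16 interferon gamma genes and in 0 of 8 inflammasome genes. A GAS core stood in 3 of the 17 and 3 of the 16.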
